A study of Mus musculus with 98 samples.

Results

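Primary hippocampal neurons that had received the tau material named hAD-tau were compared on day 21 of culture after infection with a virus that carries Acss2 (upACSS2) or with an empty vector. The members are the 6 libraries whose titles name day 21, tau and 1 of the 2 viruses, with 3 upACSS2 and 3 vector libraries, out of 98 samples in the series. All 6 came from embryonic CD1 mouse hippocampus, and the labels give no sex. Cells received PhP.eB.upACSS2 or PhP.eB-vector, both in a PhP.eB capsid, on day 5 for 48 h, were washed in PBS, and received hAD-tau on day 7. RNA was taken on day 21 without the stimulation that another set of libraries is labelled with. PBS-treated neurons of the same day, with the same 2 viruses and 3 libraries each, entered the same fit. The treatment entry of the labels calls the vector and tau libraries vector and PBS, and the upACSS2 and PBS libraries upACSS2 and tau, against their titles. Titles were followed: Acss2 checks the virus, and nothing measured here checks the tau. The promoter of the virus and the cells it infects are not given in the sources used here, and the labels do not say whether libraries of a group came from separate cultures, so p-values measure the spread between these libraries.

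ACSS2 joins acetate to coenzyme A and so makes acetyl-CoA outside the mitochondrion. Acetyl-CoA is the donor of acetyl groups for histones and the building block of fatty acids and cholesterol. In neurons, nuclear ACSS2 is known to supply acetyl-CoA to chromatin near genes that neuronal activity induces, and it has been linked to memory in the mouse hippocampus. Tau is a microtubule-binding protein of axons that aggregates in Alzheimer's disease.

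The 6 libraries held 17386121 to 26819157 counts. Vector replicate 2 stood apart: Rn45s, a ribosomal RNA precursor, took 4.10% of its counts against 0.418% to 0.926% in the other 5, it had the lowest summed level of neuronal markers and the highest of oligodendrocyte-lineage markers. upACSS2 replicate 3 had the highest level of astrocyte and reactive glia genes. Many list medians are also given without 1 of these libraries. Among the PBS libraries that share the spread estimate, vector replicate 3 stood apart on the first principal component, and Rn45s took 10.98% of vector replicate 2 and 7.93% of upACSS2 replicate 1. Neuronal markers summed to 6280 to 7350 CPM with upACSS2 and 4590 to 6960 CPM with vector, where CPM is a gene's counts relative to the scaled library size. Astrocyte markers summed to 5700 to 10900 CPM and 3360 to 5400 CPM in the same order, so the cultures held glia as well as neurons. Microglial markers summed to 5.39 to 10 CPM and 8.36 to 11.2 CPM, and the endothelial markers Cldn5 and Cdh5 were at 0. In such bulk samples more cells of a type and more RNA per cell cannot be told apart.

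Acss2 (GRCm38 chr2:155517948-155585724, plus strand) rose most among the genes called. It read 3672, 4656 and 3801 CPM with upACSS2 and 57.8, 46.96 and 59.3 with vector. Every upACSS2 library lay far above every vector library. The means were 4043 ± 535 CPM with upACSS2 and 54.7 ± 6.75 with vector (SD, n = 3 each). The log2 fold change was 6.21 ± 0.29 (SE; edgeR quasi-likelihood test, Benjamini-Hochberg adjusted p = 1.2e-06), and the exact permutation test of the 6 libraries gave 0.1, the smallest p that 3 against 3 allows. Counts do not separate the virus's copy from the cell's own gene. Acss2 overlaps Ggt7 and Gss on the other strand, whose log2 fold changes were -0.20 and -0.07.

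Besides Acss2 only 3 of 14639 genes passed an adjusted p of 0.05, so 4 genes (0.0273%) were called. Rxfp3, the receptor of the neuropeptide relaxin-3, rose. Stxbp2, which encodes Munc18-2, a syntaxin-binding protein of regulated exocytosis, fell. Mslnl, a mesothelin-like gene, fell to nearly no counts. The 60 bases before the RefSeq start of each are shown because these genes carry the called difference (GRCm38.p6). Gene spans in this text come from another annotation, GENCODE, whose starts differ. By those spans the Stxbp2 stretch lies inside the gene and the Rxfp3 stretch overlaps it. They lie at chr15:11037969-11038028, minus strand for Rxfp3, chr17:25735980-25736039, plus strand for Mslnl and chr8:3631049-3631108, plus strand for Stxbp2. Capitals mark the E-box CACGTG in Stxbp2. Of 6 motifs searched on both strands from 250 bases before to 50 after the start, the windows of Rxfp3 and Mslnl held none.
Rxfp3: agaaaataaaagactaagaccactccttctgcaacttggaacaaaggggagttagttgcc
Mslnl: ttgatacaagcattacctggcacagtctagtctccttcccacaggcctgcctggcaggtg
Stxbp2: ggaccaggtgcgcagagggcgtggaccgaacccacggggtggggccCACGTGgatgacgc

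Rxfp3 (GRCm38 chr15:11033717-11037991, minus strand) read 51.1, 45.05 and 49.6 CPM with upACSS2 and 27.8, 29.1 and 29.3 with vector. The vector libraries lay within a narrow band and all upACSS2 libraries above it, with means of 48.6 ± 3.16 CPM with upACSS2 and 28.7 ± 0.858 with vector (SD, n = 3 each). The log2 fold change was 0.76 ± 0.10 (SE; edgeR adjusted p = 0.0441). The same direction held in other libraries: 0.84 in PBS neurons, where Rxfp3 read 63.96, 55.8 and 62.1 CPM with upACSS2 and 34.9, 30.3 and 36.04 with vector, 0.30 on day 9 (edgeR adjusted p = 0.0105) and 0.69 in stimulated tau neurons (edgeR adjusted p = 0.0285). None of these sets of Rxfp3 values overlapped between the viruses. The stimulated libraries may share cultures with the resting ones, here and in the paragraphs below.

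Stxbp2 (GRCm38 chr8:3630955-3643644, plus strand) read 8.48, 9.40 and 9.76 CPM with upACSS2 and 23.6, 16.5 and 21.1 with vector. All upACSS2 libraries lay below all vector libraries, with means of 9.21 ± 0.657 CPM with upACSS2 and 20.4 ± 3.59 with vector (SD, n = 3 each). It fell by 1.15 ± 0.16 on the log2 scale (SE; edgeR adjusted p = 0.0445). In PBS neurons Stxbp2 read 7.26, 9.12 and 8.04 CPM with upACSS2 and 15.5, 17.9 and 14.1 with vector, a log2 fold change of -0.96. It also fell on day 9, by 0.39 (edgeR adjusted p = 0.0416), and in stimulated neurons, by 1.28 (edgeR adjusted p = 0.0192).

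Mslnl (GRCm38 chr17:25736042-25748330, plus strand) had 0, 0 and 1 counts with upACSS2 and 22, 11 and 19 counts with vector. The vector libraries together held 46.9 times the level of the upACSS2 libraries, with a 95% counting interval of 8.05 to 1890. The interval is wide because the upACSS2 side rests on 1 count. The fitted log2 fold change was -5.13 ± 0.69 (SE; edgeR adjusted p = 0.0441). In PBS neurons Mslnl was also lower, with a fitted -3.42, and in stimulated neurons it fell by 4.18 (edgeR adjusted p = 0.0336).

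**Figure D1:**
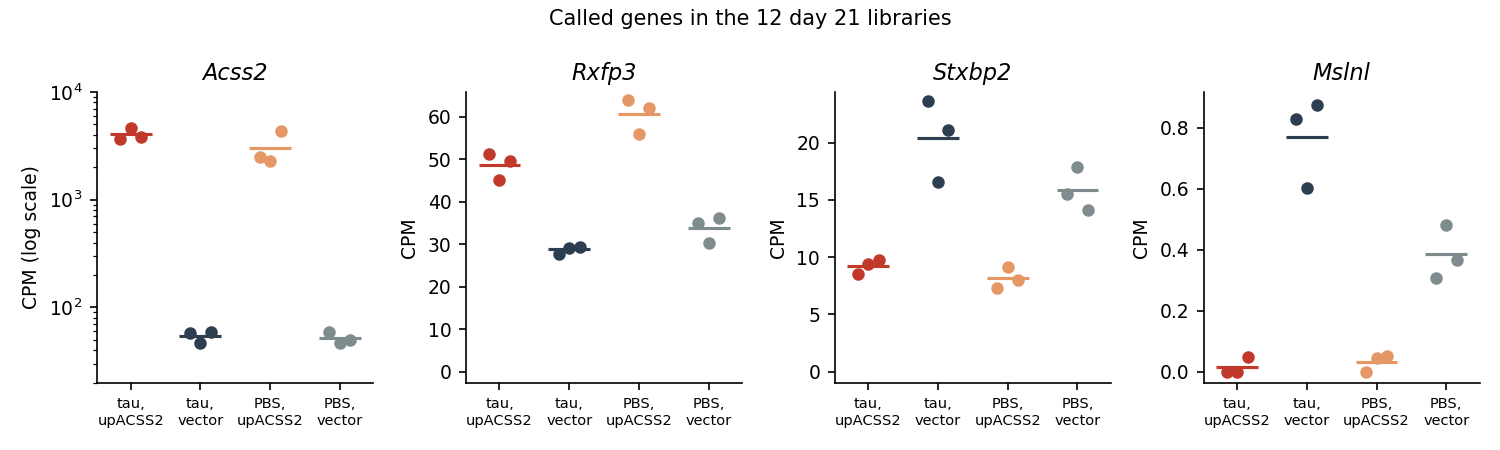
Level in CPM of the 4 called genes in each of the 12 day 21 libraries, with a log axis for Acss2. Points are libraries and lines are means of 3. The viruses do not overlap in any gene in either the tau or the PBS libraries.

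The 3 calls beside Acss2 rest on a narrow margin. Over the 12 fits that left out 1 library, Rxfp3 passed in 2 (without PBS vector replicate 2 or 3), Stxbp2 in 2 (without tau vector replicate 2 or PBS vector replicate 3) and Mslnl in 1 (without tau vector replicate 2). Their edgeR adjusted p reached 0.384 without tau upACSS2 replicate 1, while the log2 fold changes ran from 0.72 to 0.81 for Rxfp3, -1.28 to -1.03 for Stxbp2 and -7.13 to -4.65 for Mslnl.

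The genes next in order of p did not pass, with edgeR adjusted p of 0.079 to 0.087 for the 6 given here. Wfs1, which encodes wolframin, a protein of the endoplasmic reticulum membrane, read 18.4, 20.5 and 18.3 CPM with upACSS2 and 32.5, 31.5 and 37.8 with vector. Its groups did not overlap, and its log2 fold change was -0.83 ± 0.13 (SE). Lta, the cytokine lymphotoxin alpha, read 0.283, 0.241 and 0.418 CPM with upACSS2 and 2.60, 1.64 and 1.98 with vector and had a log2 fold change of -2.70. Cntn2, an axonal adhesion molecule, read 25.2, 19.4 and 23.9 CPM with upACSS2 and 58.4, 37.2 and 44.4 with vector and had a log2 fold change of -1.03. Each of these was lower in all 3 upACSS2 libraries than in any vector library. Nmbr, the neuromedin B receptor, read 14.4, 11.5 and 21.7 CPM with upACSS2 and 6.49, 5.69 and 6.12 with vector and had a log2 fold change of 1.38. Htr2a, a serotonin receptor, read 8.20, 7.81 and 7.62 CPM with upACSS2 and 3.81, 3.01 and 3.49 with vector and had a log2 fold change of 1.19. Myh7, a myosin heavy chain, read 3.22, 3.23 and 3.16 CPM with upACSS2 and 1.21, 1.20 and 1.56 with vector and had a log2 fold change of 1.27. In stimulated neurons, 4 of the 6 passed the edgeR test: Lta fell by 2.37 and Wfs1 by 0.98, and Nmbr rose by 1.18 and Myh7 by 1.53.

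By size rather than p, the highest log2 fold changes after Acss2, among genes whose log2 CPM averaged 1 or more and whose groups did not overlap, were those of Mobp, a myelin gene, at 3.27 and Lcn2, the secreted glial protein lipocalin-2, at 3.18. Mobp read 5.32, 3.28 and 18.4 CPM with upACSS2 and 0.566, 0.712 and 1.52 with vector, and Lcn2 read 3.68, 2.94 and 36.6 CPM with upACSS2 and 1.70, 0.876 and 2.16 with vector. In both genes upACSS2 replicate 3 was several times the other libraries of its group, and without it the log2 fold changes were 2.20 for Mobp and 1.05 for Lcn2. Npy2r, a neuropeptide Y receptor, read 26.5, 27.2 and 9.48 CPM with upACSS2 and 7.39, 5.14 and 5.56 with vector, with replicate 3 the lowest upACSS2 library, and its log2 fold change was 1.80. H2bc6, a replication-dependent histone H2B gene, read 3.28, 3.95 and 4.55 CPM with upACSS2 and 0.716, 1.04 and 1.61 with vector and had a log2 fold change of 1.81. At the other end Cavin2, a coat protein of caveolae, read 2.26, 1.78 and 1.35 CPM with upACSS2 and 9.20, 2.96 and 6.12 with vector and had a log2 fold change of -1.77. Slc5a5, the iodide transporter, read 2.43, 2.02 and 1.44 CPM with upACSS2 and 9.16, 3.45 and 5.93 with vector and had a log2 fold change of -1.66. These genes were chosen for their values, so the values are a description.

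Genes of the unfolded protein response and the integrated stress response were lower as a group. These programs halt translation and raise chaperones when proteins misfold in the endoplasmic reticulum or amino acids run short. Of 25 members tested, 21 were lower and 4 higher, where 51.2% of all genes tested were higher. Their median log2 fold change was -0.22, against 0.007 over all genes. None passed the adjusted threshold. At an unadjusted p under 0.05, 6 were lower and 0 higher, where the background was 5.81% lower and 4.88% higher. In 11 members, 44%, all upACSS2 libraries lay below all vector libraries, where 11.3% of all genes did. The only list member not tested was Fgf21.

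The transcription factor Ddit3 (CHOP), which acts late in both programs, was the lowest member. It read 26.2, 29.97 and 24.3 CPM with upACSS2 and 63.1, 53.4 and 56.2 with vector, and the 2 groups were far apart. Its log2 fold change was -1.10 ± 0.24 (SE; edgeR p = 0.000562, adjusted p = 0.183). Ppp1r15a (GADD34), the phosphatase subunit that restores translation, read 16.5, 16.9 and 17.3 CPM with upACSS2 and 29.7, 22.3 and 26.2 with vector. The upACSS2 libraries were nearly identical in Ppp1r15a and all below the vector libraries, with a log2 fold change of -0.63 ± 0.14 (SE; edgeR p = 0.000914, adjusted p = 0.212). Trib3, a pseudokinase that CHOP induces, read 2.26, 1.64 and 1.91 CPM with upACSS2 and 2.38, 2.90 and 3.63 with vector and had a log2 fold change of -0.62. Among the chaperones, Hspa5 (BiP) read 337, 390.1 and 344 CPM with upACSS2 and 433, 451 and 431 with vector and had a log2 fold change of -0.30. Its upACSS2 libraries all lay below the vector libraries. Hsp90b1 (GRP94) was at -0.19 and Calr (calreticulin) at -0.21 on the log2 scale, and in Calr the groups overlapped. Slc3a2, a subunit of amino acid transporters, read 167, 171 and 167 CPM with upACSS2 and 220.4, 229.9 and 190.2 with vector, again without overlap. Xbp1, the transcription factor that IRE1 activates by splicing, had a log2 fold change of -0.29, and Sesn2, a leucine sensor, one of -0.37. The 4 members that were higher were Slc7a11 (0.42), Pdia4 (0.27), Aldh1l2 (0.20) and Atf4 (0.05), with overlapping groups.

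**Figure D2:**
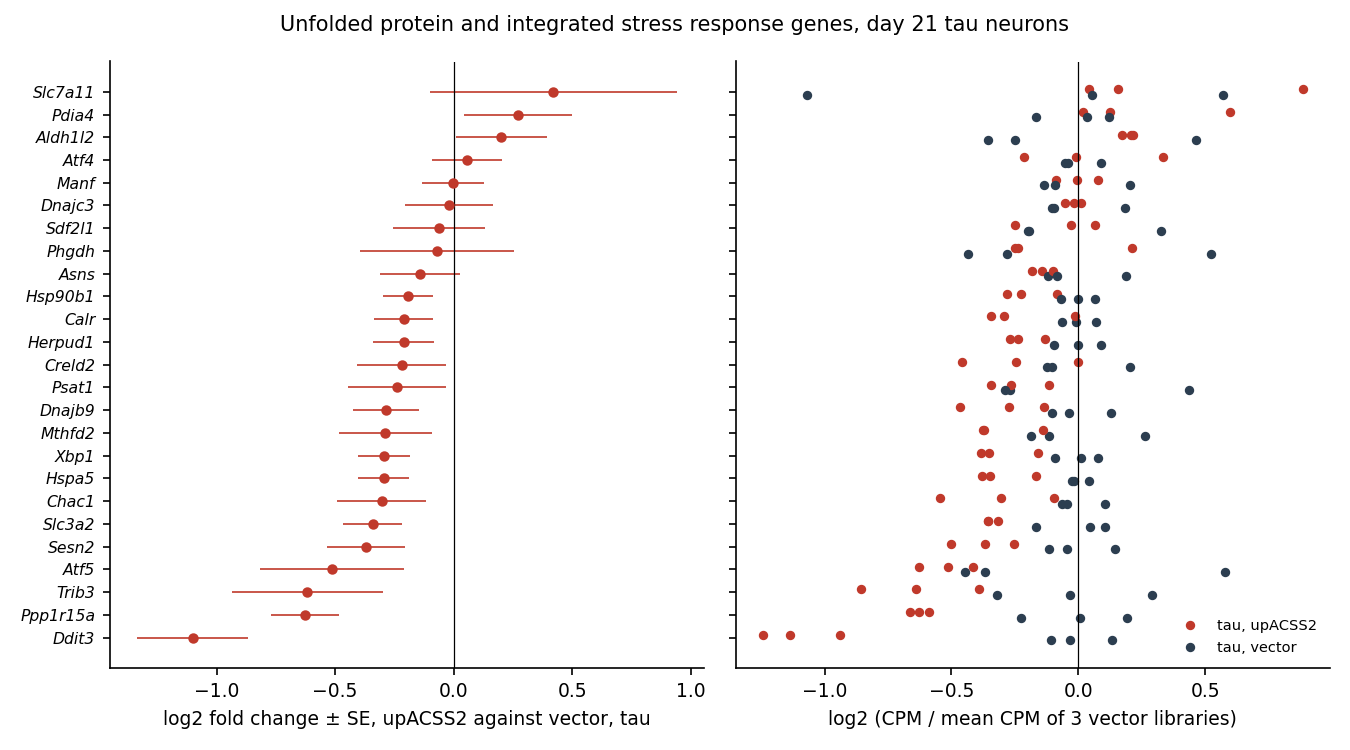
Stress response genes in the 6 tau libraries. Left, log2 fold change with its SE; right, each library's CPM relative to the mean of the 3 vector libraries on a log2 scale. Ddit3 is lowest, and all its upACSS2 points lie left of its vector points.

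The stress genes were not lower as a group in PBS neurons. There the mean level of the list was 5.995, 6.049 and 5.725 log2 CPM with upACSS2 and 5.779, 5.872 and 5.927 with vector. The groups overlapped, and upACSS2 replicate 3 lay below every PBS vector library. In PBS neurons the list's median was 0.09 with 17 of 25 members higher, and the virus effect in tau minus that in PBS had an unadjusted p under 0.05 in 11 of 25 members, where 8.3% of all genes did. No gene in the whole table passed the adjusted test of that difference in edgeR (0 of 14639, or 1215 unadjusted). DESeq2 called 3, none of them on the stress list. Ddit3 read 40.1, 52.3 and 31.2 CPM with upACSS2 and 38.1, 60.9 and 31.4 with vector in PBS neurons, where the viruses overlapped, a log2 fold change of -0.08, and the difference between tau and PBS had p = 0.00913 and an adjusted p of 0.545 (edgeR). Hspa5 had a log2 fold change of 0.13 in PBS neurons (difference p = 0.0171). In stimulated tau neurons the list's median was -0.14 with 9 of 25 higher, and Ddit3 fell by 1.07 (edgeR adjusted p = 0.0304). On day 9 the list's median was 0.04 and Ddit3 was at -0.19. Without tau vector replicate 2 the list had 16 of 25 lower in tau neurons with a median of -0.16. Of the 6 tau libraries the mean level of the list was highest in that one, at 6.03 log2 CPM against 5.78 and 5.81 in the other vector libraries and 5.60 to 5.76 with upACSS2.

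Some promoter windows of stress genes carry elements known for these programs, which describes the list and not these libraries. Windows were found for 23 of the 25 members. The endoplasmic reticulum stress element, CCAAT and CCACG with 9 bases of any kind between them, occurred in 5 of 23 (21.7%) against 0.173% of the tested genes and 0.119% of all windows of that length. The element TGATGNAA, bound by ATF4 with C/EBP partners, occurred in 5 of 23 (21.7%) against 2.69% and 3.97%. Slc7a11, the highest member of the list at 0.42, was among those that held it. The windows of Ddit3 and Wfs1 held no match to any of the 6 motifs, which says only that these letters are absent there. The lines below show the element in capitals, with 60 bases each, for 3 chaperones and for Chac1 and Herpud1, members with log2 fold changes of -0.30 and -0.21 (RefSeq, GRCm38.p6). They lie at chr2:34772004-34772063, plus strand; chr10:86705513-86705572, minus strand; chr8:84847055-84847114, minus strand; chr2:119351023-119351082, plus strand; and chr8:94386291-94386350, plus strand.
Hspa5: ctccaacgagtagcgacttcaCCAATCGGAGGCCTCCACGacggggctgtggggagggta
Hsp90b1: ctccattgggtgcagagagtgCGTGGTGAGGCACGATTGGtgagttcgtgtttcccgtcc
Calr: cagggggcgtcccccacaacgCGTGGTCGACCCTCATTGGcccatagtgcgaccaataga
Chac1: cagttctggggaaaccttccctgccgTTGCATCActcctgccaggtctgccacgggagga
Herpud1: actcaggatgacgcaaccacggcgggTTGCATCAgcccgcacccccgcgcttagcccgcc

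Genes of cholesterol synthesis and uptake, which draw on acetyl-CoA, were higher as a group. Of 26 members tested 23 were higher and 3 lower, and the median log2 fold change was 0.43. None passed the adjusted threshold. Of the 26, 9 were higher at an unadjusted p under 0.05 (34.6% against 4.88% of all genes) and 13 had all upACSS2 libraries above all vector libraries (50% against 10.3%). Lss, lanosterol synthase, read 98.1, 76.2 and 88.6 CPM with upACSS2 and 57.5, 49.8 and 57.6 with vector and had a log2 fold change of 0.67. Nsdhl, a dehydrogenase late in the pathway, read 104, 96.02 and 94.1 CPM with upACSS2 and 70.2, 55.9 and 61.5 with vector and had a log2 fold change of 0.65. In both genes the groups did not overlap and vector replicate 2 was the lowest library. Enzymes of the early steps were also higher, with Mvk, mevalonate kinase, at 0.50 and Idi1, isopentenyl diphosphate isomerase, at 0.59. The 3 lower members were Abcg1, a sterol exporter, at -0.29, and the late enzymes Ebp and Dhcr7 at -0.13 and -0.04.

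The median of the sterol genes was above 0 in each other set of neurons. The median was 0.43 in PBS neurons (24 of 26 higher), 0.14 on day 9 (25 of 26) and 0.32 in stimulated tau neurons (23 of 26), where 49.4%, 50.1% and 50.2% of all genes were higher in that order, and none of the members passed the adjusted test on day 9 or with stimulation. In PBS neurons the mean level of the list was 5.954, 5.801 and 6.672 log2 CPM with upACSS2 and 5.974, 5.585 and 5.766 with vector. The groups overlapped there, and upACSS2 replicate 3 was the highest PBS library. Of the tau libraries, vector replicate 2 had the lowest mean level of the list, and without it the tau median was 0.27. At an unadjusted p under 0.05, 3 members were then higher (11.5% against 4.28% of all genes) and 1 lower (3.85% against 5.37%). Without tau upACSS2 replicate 3 as well, 22 of 26 were higher with a median of 0.30. At that p, 1 member was then higher (3.85% against 2.25% of all genes) and 1 lower (3.85% against 4.08%).

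Of the genes that make, use or move acetyl-CoA, those for fatty acid synthesis were higher and the list as a whole was mixed. Of 26 members tested, 18 were higher with a median of 0.06. At an unadjusted p under 0.05, 4 were higher (15.4% against 4.88% of all genes) and 1 lower (3.85% against 5.81%). Without upACSS2 replicate 3 the acetyl-CoA list had 13 higher and 13 lower with a median of 0.006, without vector replicate 2 it had 14 higher with a median of 0.04, and without both no member was higher at an unadjusted p under 0.05. Acly, which makes acetyl-CoA from citrate, read 319.9, 274 and 256 CPM with upACSS2 and 229, 217 and 226 with vector, a log2 fold change of 0.34 ± 0.14 (SE; edgeR p = 0.0334). Acaca, which turns acetyl-CoA into malonyl-CoA, read 97.9, 71.7 and 93.7 CPM with upACSS2 and 59.7, 52.7 and 61.8 with vector and had a log2 fold change of 0.60 (edgeR p = 0.00831). Fasn, fatty acid synthase, read 614, 512 and 596 CPM with upACSS2 and 423, 284 and 384 with vector and had a log2 fold change of 0.66 (edgeR p = 0.0219). These 3 enzymes act in sequence, and none of them had overlapping groups. Vector replicate 2 was the lowest library in each of them. Pdk2, a kinase that inhibits pyruvate dehydrogenase, read 75.5, 66.2 and 57.1 CPM with upACSS2 and 116, 79.97 and 108 with vector and was lower by a log2 fold change of -0.61 ± 0.16 (SE; edgeR p = 0.00291). The mitochondrial synthetase Acss1 read 34.2, 33.2 and 50.8 CPM with upACSS2 and 25.98, 51.5 and 30.2 with vector, with overlapping groups.

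The fatty acid synthesis list, which shares Acly, Acaca and Fasn with the acetyl-CoA list, had 17 of 19 members higher and a median of 0.32. At an unadjusted p under 0.05, 4 were higher (21.1% against 4.88% of all genes), and 8 had no overlap (42.1% against 10.3%). Without vector replicate 2 the median was 0.32, and 1 member was higher at that p (5.26% against 4.28% of all genes). Without upACSS2 replicate 3 as well, the median was 0.26 and 0 members were higher at that p (against 2.25%). In stimulated neurons the median was 0.35, and Acsl6, an acyl-CoA synthetase, rose by 0.45 (edgeR adjusted p = 0.0304) against 0.29 here. In PBS neurons the median was -0.14 with 7 of 19 higher. Enzymes that place or remove histone acetyl groups were flat as lists. Of 14 acetyltransferases 7 were higher, with a median of -0.01, and Crebbp (CBP) alone had an unadjusted p under 0.05. Crebbp read 46.3, 35.7 and 40.5 CPM with upACSS2 and 27.6, 30.9 and 32.3 with vector, a log2 fold change of 0.43. Of 18 deacetylases and sirtuins 11 were lower, with a median of -0.05, and Hdac11 read 118, 118 and 123 CPM with upACSS2 and 183, 155 and 157 with vector, a log2 fold change of -0.46.

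Late effector genes of neuronal activity were higher, and the immediate early transcription factors were not so as a group. Of 26 effectors tested, 24 were higher with a median of 0.44. At an unadjusted p under 0.05, 6 were higher (23.1% against 4.88% of all genes), and 9 had no overlap (34.6% against 10.3%). Of 18 immediate early transcription factors 11 were higher, with a median of 0.12, and 9 were higher without vector replicate 2, with a median of -0.05, or without upACSS2 replicate 3, with a median of 0.005. Plk2, a kinase that scales down synapses, read 144, 147 and 113 CPM with upACSS2 and 77.2, 66.7 and 91.96 with vector, a log2 fold change of 0.78 ± 0.14 (SE; edgeR p = 0.00016, adjusted p = 0.147). All upACSS2 libraries lay above all vector libraries, and in stimulated neurons Plk2 rose by 0.70 (edgeR adjusted p = 0.0304). Pcsk1, a prohormone convertase, read 122, 118 and 117 CPM with upACSS2 and 91.1, 42.6 and 67.9 with vector and had a log2 fold change of 0.83. Ptgs2 (COX-2), which makes prostaglandins, read 70.4, 43.3 and 82.1 CPM with upACSS2 and 26.5, 10.6 and 42.1 with vector and had a log2 fold change of 1.30. Nptx2, a secreted pentraxin that clusters AMPA receptors, read 33.02, 25.8 and 62.2 CPM with upACSS2 and 21.6, 11.4 and 23.4 with vector and had a log2 fold change of 1.10. In each of these 3 genes vector replicate 2 was the lowest library. Fosl2, an AP-1 subunit, read 135, 122 and 126 CPM with upACSS2 and 69.5, 38.4 and 78.7 with vector and had a log2 fold change of 1.04, while Npas4 read 7.97, 5.16 and 13.5 CPM with upACSS2 and 5.24, 2.90 and 23.95 with vector, with overlapping groups.

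Leaving out vector replicate 2 reduced the effector list's median to 0.27, and leaving out upACSS2 replicate 3 as well reduced it to 0.19. Without both, 2 members were higher at an unadjusted p under 0.05 (7.69% against 2.25% of all genes). In PBS neurons the median was 0.42, on day 9 it was 0.10, and in stimulated neurons it was 0.17. The cyclic AMP response element TGACGTCA was found in 4 of 18 windows of the list (22.2%) against 3.51% of tested genes and 1.79% of all windows. It is shown in capitals for Plk2, Pcsk1 and the stress gene Ppp1r15a, whose window also held it (RefSeq, GRCm38.p6). The stretches lie at chr13:110394956-110395015, plus strand; chr13:75089753-75089812, plus strand; and chr7:45526269-45526328, minus strand.
Plk2: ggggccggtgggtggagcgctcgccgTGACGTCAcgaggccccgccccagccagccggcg
Pcsk1: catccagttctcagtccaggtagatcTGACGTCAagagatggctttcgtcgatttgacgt
Ppp1r15a: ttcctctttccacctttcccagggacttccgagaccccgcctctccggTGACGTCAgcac

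Genes of GABAergic interneurons, the inhibitory cells of the hippocampus, were higher in 19 of 20 members tested, with a median of 0.23. At an unadjusted p under 0.05, 7 were higher (35% against 4.88% of all genes) and 0 lower, and 5 had no overlap (25% against 10.3%). Gad2, which makes GABA from glutamate, read 384, 356 and 451 CPM with upACSS2 and 249, 245 and 299 with vector, a log2 fold change of 0.59 ± 0.14 (SE; edgeR p = 0.00129, adjusted p = 0.227). Gad1, the other such enzyme, read 792, 667 and 971 CPM with upACSS2 and 597, 561 and 662 with vector and had a log2 fold change of 0.42. The peptide somatostatin (Sst) read 168, 167 and 227 CPM with upACSS2 and 130.2, 165 and 121 with vector and had a log2 fold change of 0.43. All 3 genes were higher in each upACSS2 library than in any vector library. In stimulated tau neurons Gad2 rose by 0.56 and Sst by 0.66 (edgeR adjusted p = 0.0383 and 0.0383), and the list's median was 0.35. Pvalb, parvalbumin, read 4.52, 2.65 and 6.64 CPM with upACSS2 and 1.70, 1.86 and 2.44 with vector here, a log2 fold change of 1.21, and was at -0.70 in PBS neurons (difference p = 0.00315, edgeR, unadjusted). Of the tau libraries, the mean level of the list was highest in upACSS2 replicate 3, and without that library the median was 0.14. Then 3 members were higher at an unadjusted p under 0.05 (15% against 3.2% of all genes).

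Genes of glutamate receptors were slightly higher. The medians of the presynaptic, postsynaptic, channel and neuronal identity lists fell to near 0 without vector replicate 2, the library with the lowest neuronal markers. Of 25 glutamate receptor genes and their auxiliary subunits 23 were higher, with a median of 0.19, and 8 had no overlap (32% against 10.3% of all genes). Without vector replicate 2 the receptor list had 20 of 25 higher and a median of 0.16, and without upACSS2 replicate 3 it had 25 of 25 higher and a median of 0.32. The AMPA receptor subunit Gria3 read 129, 129 and 123 CPM with upACSS2 and 106, 94.96 and 108 with vector, a log2 fold change of 0.30 ± 0.09 (SE; edgeR p = 0.00464), and Gria1 read 1117, 1027 and 937 CPM with upACSS2 and 856, 687 and 881 with vector, a log2 fold change of 0.35. Presynaptic genes were higher in 19 of 28, with a median of 0.17, but without vector replicate 2 in 14 of 28, with a median of -0.009. Without that library the postsynaptic scaffold list went from 22 to 13 of 26 higher (median 0.004), voltage-gated channels from 26 to 17 of 33 (median 0.02) and neuronal identity genes from 14 to 11 of 21 (median 0.04). Without upACSS2 replicate 3 as well, 16 of 28 presynaptic and 21 of 26 postsynaptic genes were higher (medians 0.03 and 0.07). Then 21 of 33 channels and 13 of 21 neuronal identity genes were higher (medians 0.08 and 0.06). Some presynaptic genes were lower. Vamp1, a vesicle fusion protein, read 67.1, 70.6 and 69.8 CPM with upACSS2 and 134, 93.6 and 124 with vector, a log2 fold change of -0.76. Vamp1 also fell on day 9, by 0.53 (edgeR adjusted p = 0.00138). Doc2a, a calcium sensor of spontaneous release, read 20.5, 19.4 and 16.7 CPM with upACSS2 and 32.4, 23.4 and 28.2 with vector, a log2 fold change of -0.57, and fell in stimulated neurons by 0.67 (edgeR adjusted p = 0.0368). Vamp1 overlaps Tapbpl and Doc2a overlaps Ino80e on the other strand, and the strand setting of the counting is not given in the sources used here. The neurofilament gene Nefl read 1118, 1163 and 1210.3 CPM with upACSS2 and 781, 469.9 and 711 with vector and had a log2 fold change of 0.83, and Nefh read 61.9, 57.96 and 69.1 CPM with upACSS2 and 48.04, 35.7 and 46.9 with vector, with a log2 fold change of 0.53 and a rise of 0.64 in stimulated neurons (edgeR adjusted p = 0.0327). Nefl overlaps Nefm on the other strand. Mapt, which encodes tau itself, read 488, 482 and 429 CPM with upACSS2 and 525, 468 and 482 with vector, with overlapping groups.

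Targets of NF-kB and markers of reactive glia were higher in the tau libraries, and these values moved with 1 library. Of 33 list members 25 were tested, and 24 of the 25 were higher with a median of 0.70. At an unadjusted p under 0.05, 8 were higher (32% against 4.88% of all genes), and 10 had no overlap (40% against 10.3%). The other 8 (Ccl2, Ccl5, Ccl20, Cxcl2, Il1b, Il6, Saa3 and Tnf) were too low to test. Serpina3g, a protease inhibitor of inflamed cells, read 4.24, 2.89 and 5.16 CPM with upACSS2 and 0.980, 0.219 and 1.56 with vector, a log2 fold change of 2.12 ± 0.54 (SE; edgeR p = 0.00215, adjusted p = 0.257). Its 3 upACSS2 libraries were similar, and in stimulated neurons it rose by 2.48 (edgeR adjusted p = 0.0425). Serpina3n, its relative in reactive astrocytes, read 232, 215 and 314 CPM with upACSS2 and 139, 135 and 182 with vector and had a log2 fold change of 0.74. The serpin a3 genes are a family of similar copies, so their counts are uncertain. Steap4, a metalloreductase, read 1.36, 0.723 and 17.7 CPM with upACSS2 and 0.113, 0.274 and 0.322 with vector, and the chemokine Cxcl1 read 0.792, 0.578 and 1.86 CPM with upACSS2 and 0.377, 0.383 and 0.368 with vector. In Steap4, Cxcl1 and Lcn2 upACSS2 replicate 3 was the highest library by far.

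Without upACSS2 replicate 3 the glial list's median was 0.29, with 1 member higher at an unadjusted p under 0.05 (4% against 3.2% of all genes). Astrocyte identity genes moved with the list: 15 of 16 were higher with a median of 0.28 (0.47 without vector replicate 2). At an unadjusted p under 0.05, 1 was higher (6.25% against 4.88% of all genes) and 1 lower (6.25% against 5.81%). Without upACSS2 replicate 3, 14 of 16 were higher with a median of 0.22, and 0 were higher at that p. Gfap read 3849, 3060.0 and 7333 CPM with upACSS2 and 1411, 2899 and 2863 with vector. The part of astrocyte number in the glial values was not tested. In PBS neurons both lists went the other way, with medians of -0.84 for the reactive genes (4 of 25 higher) and -0.59 for the astrocyte genes (0 of 16 higher). There PBS vector replicate 3 had the highest level of both lists, at 3.80 and 8.74 log2 CPM against 2.13 to 2.86 and 7.30 to 7.54 in the other 2 PBS vector libraries. The difference between tau and PBS had an unadjusted p under 0.05 in 14 of 25 reactive genes, where 8.3% of all genes did. Birc3, an NF-kB target that inhibits apoptosis, was higher with upACSS2 in tau without overlap and lower in PBS without overlap, as were 49 of all genes, and 26 were the reverse (0.512% of all in total, against 3.74% without overlap in the same direction).

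The NF-kB motif, GGG and TTTCC with 2 bases of any kind between them, occurred in 8 of 21 windows of the list (38.1%) against 1.90% of tested genes and 1.63% of all windows. It is shown in capitals for Serpina3g, Cxcl1 and Steap4 (RefSeq, GRCm38.p6), at chr12:104236037-104236096, plus strand; chr5:90891131-90891190, plus strand; and chr5:7960222-7960281, plus strand. These are matches of letters, not sites.
Serpina3g: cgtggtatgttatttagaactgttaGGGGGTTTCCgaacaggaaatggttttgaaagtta
Cxcl1: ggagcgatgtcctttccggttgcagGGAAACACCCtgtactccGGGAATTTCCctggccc
Steap4: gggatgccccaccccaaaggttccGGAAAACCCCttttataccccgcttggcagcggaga

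**Figure D3:**
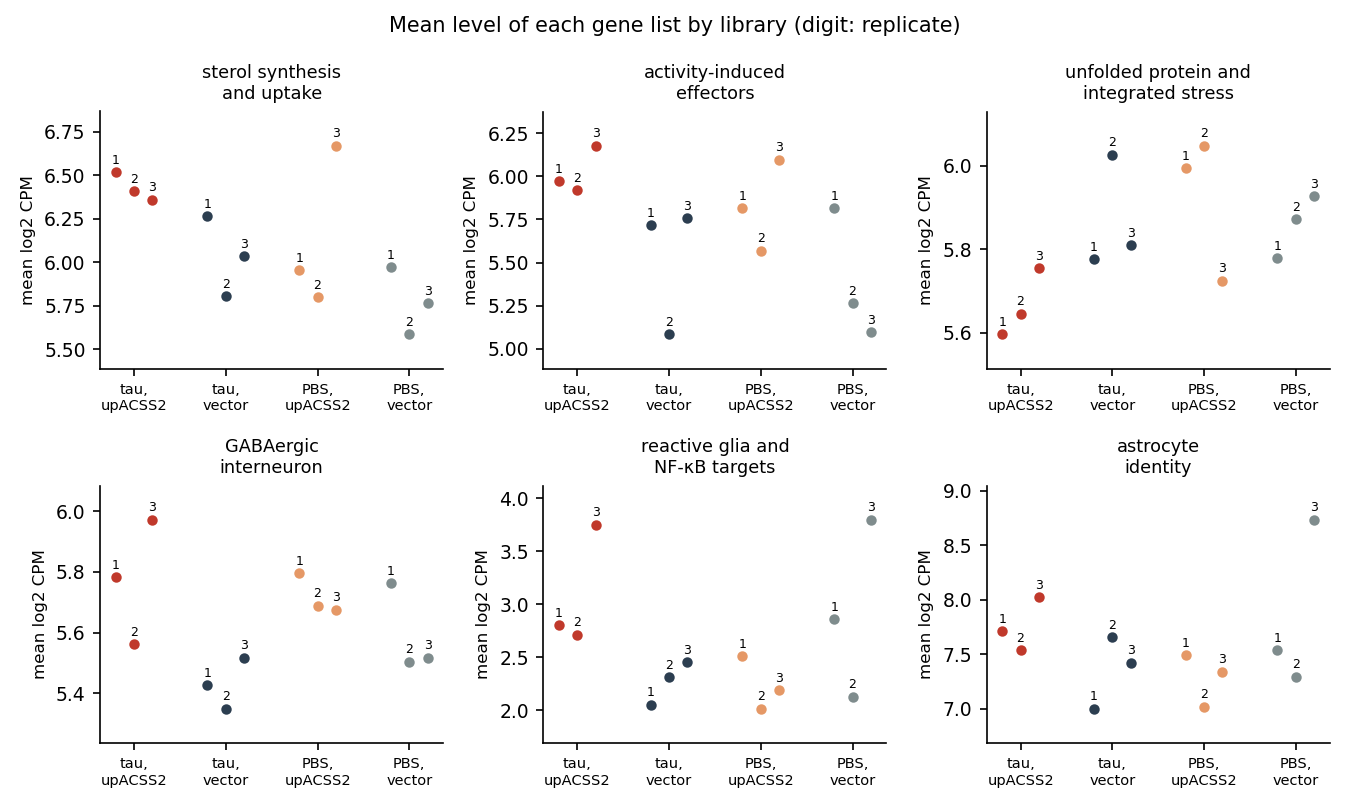
Mean log2 CPM of 6 gene lists in each of the 12 day 21 libraries, with the replicate number above each point. Tau upACSS2 replicate 3 and PBS vector replicate 3 are the highest in the reactive glia list, and tau vector replicate 2 is the lowest of the tau libraries in the sterol and activity lists.

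Set beside the other neurons, the day 21 tau values were most like those of the stimulated tau neurons. Across 14578 genes without Acss2 the log2 fold changes had a Spearman correlation of 0.74 with the stimulated set, 0.29 with day 9 tau (13858 genes) and 0.207 with day 21 PBS (14638 genes), and genes are not independent replicates. Of the genes at an unadjusted p under 0.05 here, 98.3% had the same sign in stimulated tau neurons, against 78.9% of all genes. The shares were 77.7% on day 9 and 77% in PBS neurons, against 59.8% of all genes in each. The sets share no library, but stimulated and resting libraries of the same number deviated together from their group means in 9 of 12 pairs, with correlations of -0.0913 to 0.638 across 14579 genes. They may therefore share cultures, and the likeness of these sets cannot be told apart from that. The number of genes called was 140 of 14939 (0.937%) in stimulated tau neurons, 97 of 14022 (0.692%) on day 9 and 2 of 14639 (0.0137%) in PBS neurons.

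**Figure D4:**
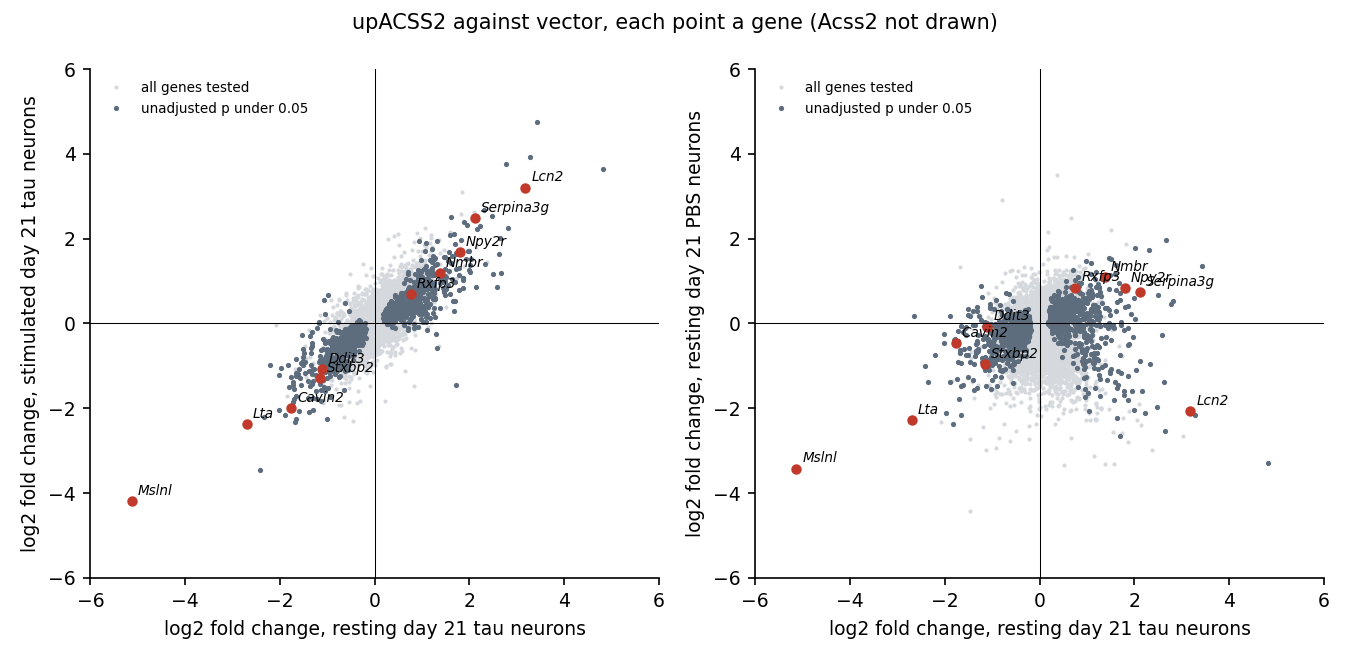
Log2 fold change of upACSS2 against vector in resting day 21 tau neurons (horizontal) against stimulated tau neurons (left) and PBS neurons (right), 1 point a gene, with Acss2 left out. Rxfp3, Stxbp2 and Mslnl lie in the same direction in both panels, and Lcn2 is higher in both tau sets and lower in PBS neurons.

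**Figure D5:**
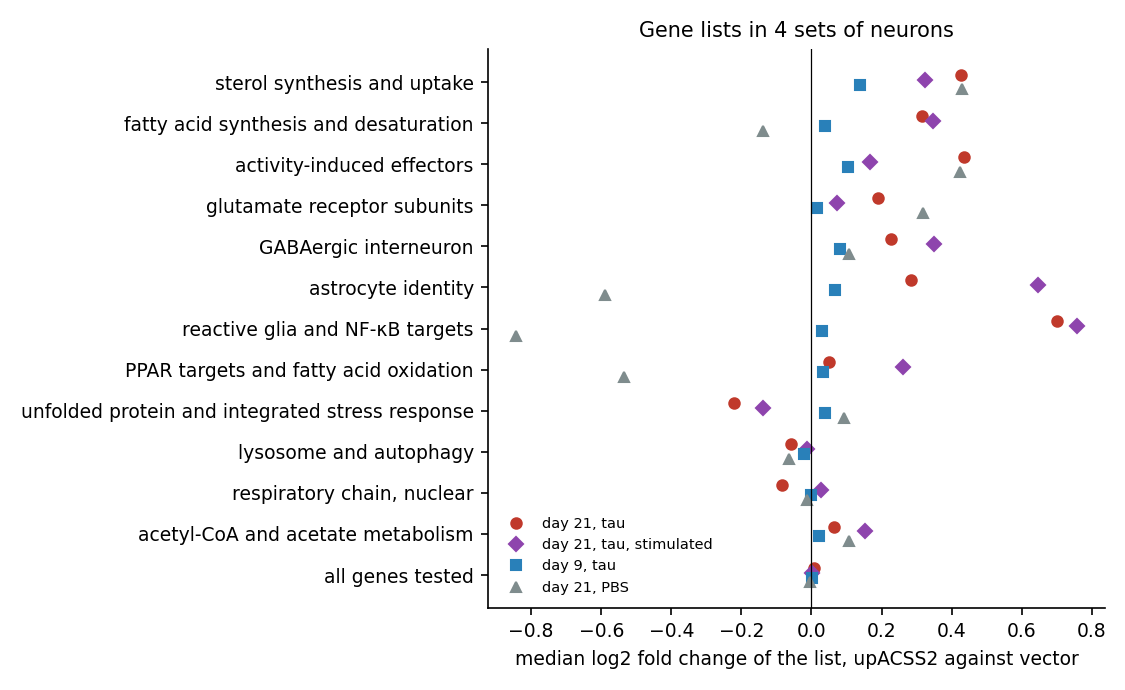
Median log2 fold change of 12 gene lists and of all genes tested in 4 sets of neurons. The sterol list lies above 0 in all 4, and the stress list lies below 0 in the 2 day 21 tau sets alone.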

How the data were processed

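RNA was extracted with Trizol and an RNeasy column, and NEB libraries were made from 130 ng, per the labels' protocols. The authors deposited counts per gene symbol. The submitters' processing notes name mm10, STAR, featureCounts, HTSeq and DESeq2 without roles, and no version or strand setting is given in the sources used here. The 12 day 21 libraries were fitted together in edgeR 4.0.16 (R 4.3.3), with TMM scaling, the default filter by group, quasi-likelihood F tests and Benjamini-Hochberg adjustment at 0.05, two-sided. CPM are on TMM-scaled library sizes. Day 9 and stimulated libraries were fitted separately, with 12 libraries each. Named genes were Acss2, called genes, those of lowest p, the highest and lowest fold changes without overlap, and the ends of 30 gene lists. Others were added for their role, and some genes are not reported here. Members and lists were chosen with earlier results of these data known. Lists were described without tests. All pairs of libraries in a group differed by more than sampling noise (chi-square per gene at least 6.25). Counts of 14639 genes were simulated for this comparison, with 100 genes changed 2-fold, 100 changed 4-fold and no library made to stand apart. There the test recovered 69% of 2-fold and 92% of 4-fold changes, and 8.52% of calls were false. The real libraries differ from that setting, so the share of real changes that would be called is not known. Promoter windows came from RefSeq, and DESeq2 1.42.0 was an alternative. Figures were drawn with matplotlib 3.10.9.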

Additional observations from a re-analysis of the deposited data

How the results depend on the processing

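The count of 4 called genes depended on the fit. DESeq2 gave 126 (56 higher, 70 lower), the fit of all 24 unstimulated libraries 528 (205 higher, 323 lower), RLE scaling 4, the fit without the filter on low counts 2, and only the 6 libraries compared 1. The 12 fits that left out 1 library gave 1 to 6. Leaving out tau upACSS2 replicate 3 with tau vector replicate 2, or PBS vector replicates 2 and 3, gave 1 each. All 4 genes were among those called with 24 libraries and in DESeq2. Acss2 passed in every fit run. The difference between the virus effects in tau and PBS gave 0 genes in each edgeR fit and 3 in DESeq2, Gjb6 and Steap4 among them. The cause of these changes was not tested. Same-numbered libraries of the 2 viruses had correlations of 0.277, 0.0216 and 0.0839, and 2 of 6 correlated best with their own number. With so few libraries these values do not settle whether the numbers pair the samples. The replicate block gave 1 gene, and 1842 at an unadjusted p under 0.05 against 1564.

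The single genes followed here that changed sign were these. Atf4 was at -0.14 without both tau libraries in doubt, and Npas4 at 0.026 with the replicate block. With 1 library left out, Atf4 ran from -0.11 to 0.17, Npas4 from -0.71 to 1.11, Acss1 from -0.088 to 0.49 and Dhcr7 from -0.18 to 0.16. Some list medians also changed sign with 1 tau library left out. The median of the immediate early factors ran from -0.05 to 0.45 and that of the presynaptic genes from -0.009 to 0.27. For the PPAR targets it ran from -0.04 to 0.27 and for the acetyltransferases from -0.03 to 0.06. Depth limits Mslnl, whose upACSS2 libraries hold 1 count.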

Other observations

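Genes of dividing cells were higher in the tau neurons in 16 of 18 members tested, with a median log2 fold change of 0.40, and 6 had no overlap (33.3% against 10.3% of all genes). None had an unadjusted p under 0.05, and without upACSS2 replicate 3 the median was 0.21. Mki67, the marker of cycling cells, read 40.5, 43.3 and 46.05 CPM with upACSS2 and 22.1, 31.8 and 28.9 with vector, and Cenpf, a kinetochore protein, read 20.8, 22.5 and 23.8 CPM with upACSS2 and 10.2, 14.1 and 13.3 with vector. The list's median was 0.93 in PBS neurons (18 of 18 higher), 0.53 in stimulated tau neurons and -0.13 on day 9. In PBS neurons the mean level of the list was 3.173, 5.068 and 3.584 log2 CPM with upACSS2 and 3.453, 2.962 and 3.672 with vector. There only upACSS2 replicate 2 lay above the vector libraries. In the tau libraries, oligodendrocyte-lineage genes had a median of 0.25 and were highest in vector replicate 2, without which the median was 0.88. Of the endothelial, mural and fibroblast list 8 of 14 members were higher, with a median of 0.22. Col1a1, which encodes a chain of type I collagen, read 0.622, 1.40 and 0.743 CPM with upACSS2 and 4.52, 1.92 and 1.61 with vector, and Col1a2, the other chain, read 0.509, 0.915 and 1.02 CPM with upACSS2 and 2.83, 2.74 and 1.70 with vector. In the collagen gene Col3a1, which read 0.961, 2.17 and 1.02 CPM with upACSS2 and 3.28, 3.72 and 1.56 with vector, the groups overlapped. Rgs5, a pericyte marker, had a log2 fold change of 1.07, and Lum, lumican, read 2.04, 2.65 and 3.39 CPM with upACSS2 and 1.02, 1.37 and 1.52 with vector. In Col1a1, Col1a2, Rgs5 and Lum the groups did not overlap, and these genes were chosen after their values were seen.

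Nuclear genes of the respiratory chain were slightly lower in 29 of 33 members, with a median of -0.08 (-0.04 without vector replicate 2). Of the 33, 2 were lower without overlap (6.06% against 11.3% of all genes), and in stimulated tau neurons 21 of 33 were higher. Lysosome and autophagy genes were lower in 22 of 30, with a median of -0.06. Without vector replicate 2 that list had 18 of 30 lower and a median of -0.09. Then 1 member was lower at an unadjusted p under 0.05 (3.33% against 5.37% of all genes). Hexa, a lysosomal enzyme gene, read 56.2, 55.2 and 58.9 CPM with upACSS2 and 72.6, 71.3 and 64.7 with vector, a log2 fold change of -0.29. It overlaps a gene on the other strand. Targets of the PPAR receptors in fat oxidation had a median of 0.05 here (-0.04 without upACSS2 replicate 3 and 0.27 without vector replicate 2) and -0.54 in PBS neurons. Among them Angptl4, a lipase inhibitor, read 7.75, 4.58 and 13.2 CPM with upACSS2 and 3.02, 5.31 and 4.32 with vector in tau neurons and 2.31, 1.81 and 2.10 CPM with upACSS2 and 4.41, 4.30 and 10.6 with vector in PBS neurons, with log2 fold changes of 1.02 and -1.65 (difference p = 0.000959, edgeR, unadjusted). In both comparisons the highest library was the one with the most astrocyte RNA, tau upACSS2 replicate 3 or PBS vector replicate 3. The part of astrocyte number in these values was not tested.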
